A study of Mus musculus with 21 samples.

Results

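The complement and coagulation genes described here are 41 genes for secreted plasma proteins, taken from the scanner output of mouse liver arrays as every non-control spot that carried 1 of 41 listed gene names. Where several probes carried a name, the brightest one stood for the gene. All 41 genes were measured, out of 19716 genes tested. Each array compared the liver RNA of 1 mouse, labelled with the red dye Cy5, with an equimolar pool of all livers, labelled with the green dye Cy3. The mice were adult C57BL/6J males that ate a normal-fat diet for 3 weeks and then a high-fat diet for 12 weeks, and they were fasted for 2 to 4 hours before death. The 11 mice of the HF group ate the high-fat diet alone, and the 10 mice of the HF-Q group ate it with 0.33% (w/w) of the plant flavonol quercetin. Both groups therefore share the high-fat diet, and no group on a normal-fat diet was analysed here.

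Complement is a chain of plasma proteases and binding proteins that marks microbes and damaged cells and ends in a pore in the target membrane. It starts on antibody through C1q, on surface sugars through mannose-binding lectin, or on its own through C3 and factor B, and all routes meet at C3. Coagulation is a second protease chain, which turns prothrombin into thrombin and soluble fibrinogen into fibrin, and antithrombin, protein C and other inhibitors restrain it while plasmin dissolves the clot. Hepatocytes secrete most of these proteins, whereas C1q comes mainly from macrophages, which in liver are the Kupffer cells.

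A value below is the log2 of a liver's Cy5 signal over the pool's Cy3 signal, so 0 means as much as in the pool and 1 means double. It says how livers differ in 1 gene and cannot rank genes against each other. Every array had the liver in Cy5, so a ratio against the pool can carry a dye effect, which is the same in both diet groups. A difference is the HF-Q mean minus the HF mean, given ± its standard error from limma's moderated test (two-sided), and p-values were adjusted over all 19716 genes by the Benjamini-Hochberg method with a threshold of 0.05. The arrays lay on 3 slides, and each slide held both diets. No member was saturated on any array, and 8 of the 41 lacked a value on some arrays where their spot was marked as uneven or outlying. All 6 hepatocyte markers examined (Alb, Ttr, Apoa1, Apob, Tat, Cps1) were measured.

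In each group 1 liver went with the other group on genes outside the set. HF replicate 2 had a ratio of -1.96 for Cyp2b10, a drug-metabolizing cytochrome, against -0.096 to 1.87 in the other HF livers, but 0.23 for the sulfotransferase Sult2a7, within the -0.064 to 0.34 of the other HF livers. HF-Q replicate 10 had 0.62 for Cyp2b10, against -1.81 to -0.91 in the other HF-Q livers, and 0.49 for Sult2a7, against -0.56 to -0.15. The same 2 livers stood at the ends of the complement and coagulation genes. HF replicate 2 was the highest of all livers for 18 of the 41 genes, and HF-Q replicate 10 was the lowest for 16 of the 37 measured there. HF-Q replicate 10 had no value for Ttr and Tat, and of the other 4 hepatocyte markers Alb was at 0.36, Apoa1 at -0.18, Cps1 at -0.56 and Apob at -1.55 there. The mean of these 4 was -0.48 in HF-Q replicate 10, against -0.13 to 0.47 in the other HF-Q livers, and 0.50 in HF replicate 2, the highest of all livers. The part of these livers' identity, or of their hepatocyte content, in the results was not tested, and results are given with all 21 livers and with the 19 that remain without them.

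**Figure D1:**
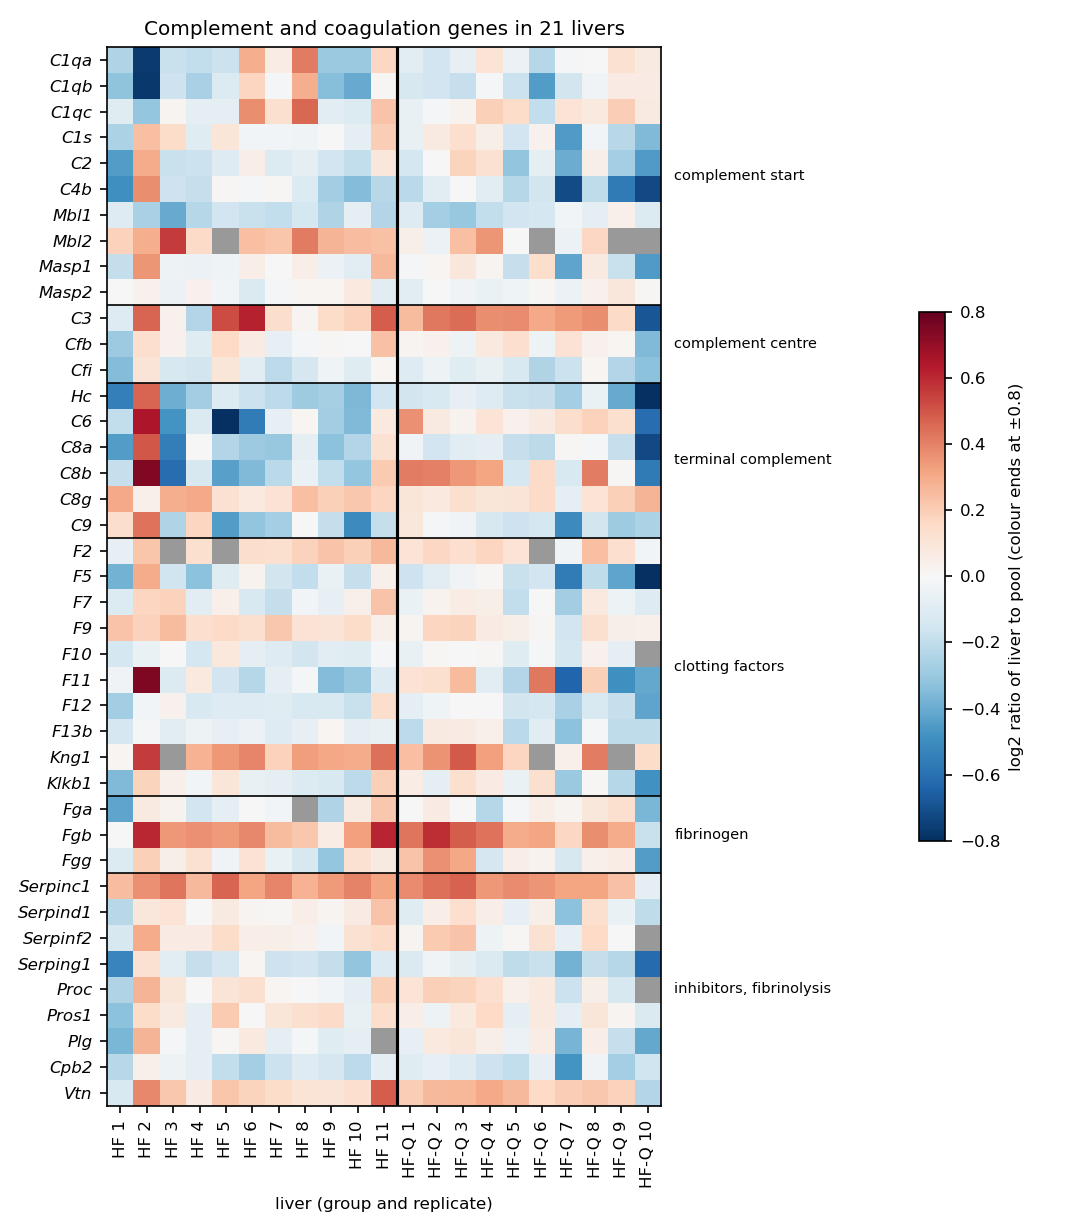
Log2 ratio of each liver to the pool (colour, from -0.8 in blue to 0.8 in red, grey where no value was kept) for the 41 genes in rows, ordered by role, in 11 HF and 10 HF-Q livers in columns. The column of HF replicate 2 is red in most rows other than C1q and that of HF-Q replicate 10 is blue in most, while C1qa, C1qb and C1qc change together from liver to liver.

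None of the 41 genes passed the adjusted threshold between HF-Q and HF in limma's test, and none of all 19716 genes did (0% called, lowest adjusted p = 0.382). At an unadjusted p under 0.05 stood 2 of the 41 (4.88%), Mbl2 and F9, against 1169 of all genes, a background of 5.93%. The members' differences were small: their median size without sign was 0.040, beside 0.038 over all genes. By sign, 26 of the 41 (63.4%) were lower in HF-Q and 15 were higher, with a median of -0.030, beside 53% lower and a median of -0.0043 over all genes. This lean depended on the scaling, and the share over all genes moved with it. With the scanner's processed signals 73.2% of the members were lower, beside 62.2% of all genes. It was 43.9% beside 47.8% in the authors' deposited log2 table, and 24.4% beside 34.3% when arrays were only centred on their median. That centring moved the median over all genes to 0.024. Signs given with median centring further on are to be read against this value. With slide as a block, 31 (75.6%) were lower, beside 53.2% of all genes. In that fit 3 members stood at an unadjusted p under 0.05 (7.32%, C6, F9 and Mbl2), beside 6.95% of all genes. Within slide 1, slide 2 and slide 3 the members' median was -0.093, 0.058 and -0.035, so the slides did not share a direction. Slide 1 held 3 HF and 4 HF-Q livers, slide 2 held 4 and 2, and slide 3 held 4 and 4. HF-Q replicate 10 lay on slide 1 and HF replicate 2 on slide 3, so slide 2 held neither. The 2 diet groups overlapped for each of the 41 genes, and 0.00507% of all genes, which is 1 gene, had groups that did not overlap.

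Without HF replicate 2 and HF-Q replicate 10, 16 members (39%) were lower and 25 higher, with a median of 0.016. Over all genes 50.6% were lower, with a median of -0.0010. HF replicate 2 was the highest liver for 18 members and HF-Q replicate 10 the lowest for 16. Leaving them out raises HF-Q minus HF for those genes by construction, so the turn of the lean is no separate result. Still no member passed (lowest adjusted p = 0.127), while 18 of all genes did (0.0913%). At an unadjusted p under 0.05 were then 5 of the 41 (12.2%), which were C6, C8b, C8g, F9 and Mbl2, beside 9.48% of all genes. The groups overlapped for each of the 41 genes here too, beside 14 genes (0.071%) of all whose groups did not.

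**Figure D2:**
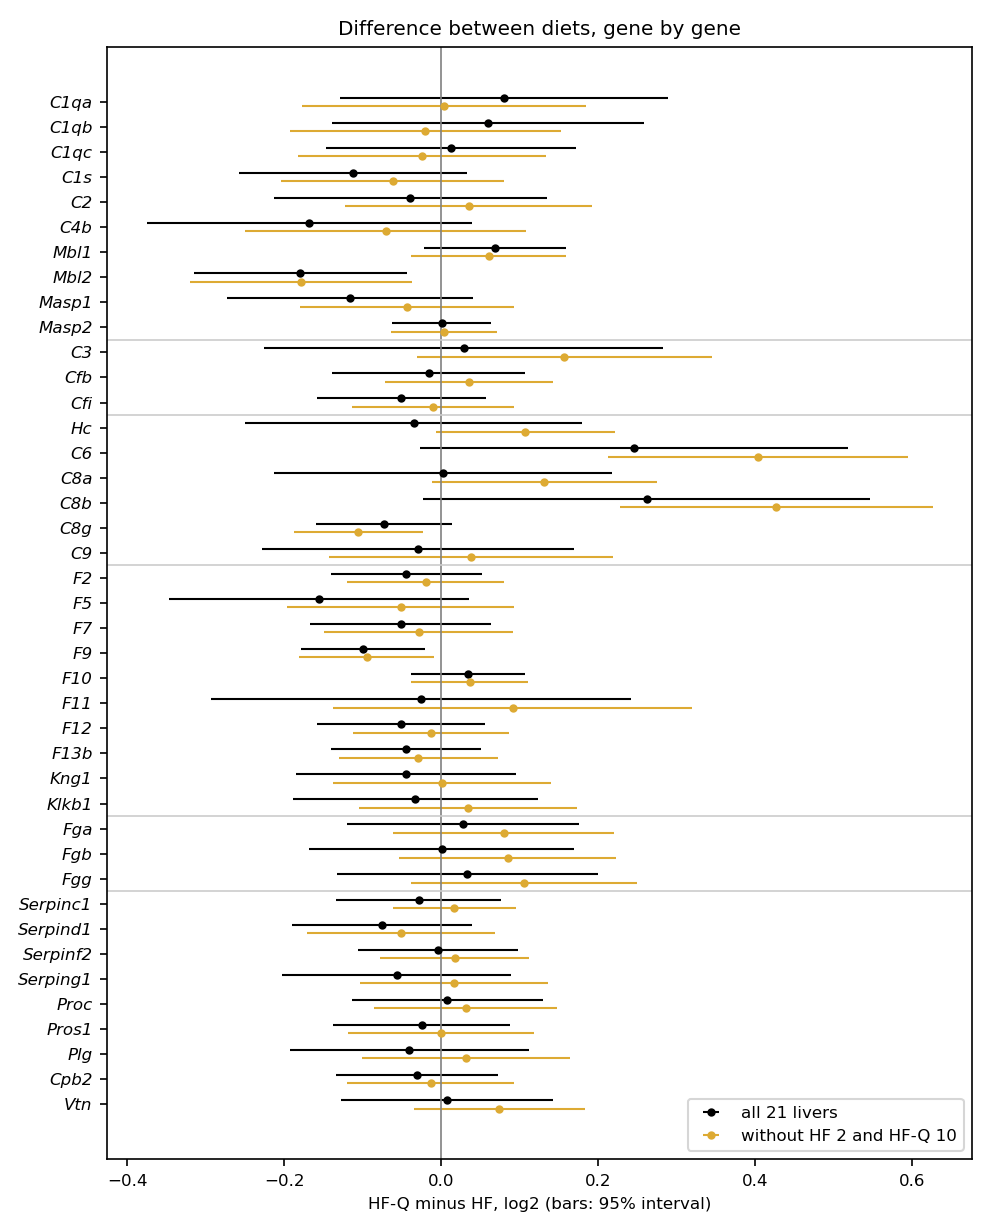
Difference between diets (HF-Q minus HF, log2, x axis) with its 95% interval for each of the 41 genes, with all 21 livers in black and without HF replicate 2 and HF-Q replicate 10 in yellow. With all livers the interval leaves out 0 for Mbl2 and F9 only, and without the 2 livers also for C6, C8b and C8g.

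Among the 10 genes at the start of complement, 5 were lower and 5 higher in HF-Q, with a median of -0.020 (-0.022 without the 2 livers). The lowest p belonged to Mbl2, which encodes a mannose-binding lectin that recognizes microbial sugars (probe at chr19:30314044-30314103 on mouse build mm9). Its ratio ran from 0.15 through a median of 0.24 to 0.56 in 10 HF livers and from -0.046 through 0.050 to 0.36 in 7 HF-Q livers. Of the 7, 4 lay below every HF liver and the other 3 within the HF range. The difference was -0.18 ± 0.065 (adjusted p = 0.77, 95% interval -0.32 to -0.044), and -0.18 without the 2 livers, of which HF-Q replicate 10 had no value. It was -0.21 within slide 2 and -0.16 within slide 3, and slide 1 kept too few values to give one. The other lectin gene, Mbl1, lay the other way, with a median of -0.20 in HF (-0.40 to -0.076) and -0.13 in HF-Q (-0.30 to 0.041).

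C4b encodes complement C4, which is cleaved by C1s and the lectin-bound protease and then anchors the C3 convertase. Its ratio ran from -0.49 through -0.17 to 0.37 in HF and from -0.72 through -0.21 to -0.0062 in HF-Q. HF replicate 2 was the only HF liver with a clearly positive ratio, and HF-Q replicates 7, 9 and 10 lay below all HF livers. The difference was -0.17 ± 0.10 (adjusted p = 0.90), and -0.071 without the 2 livers. The mouse genome holds a close relative of this gene, and whether the probe tells the copies apart was not tested. C1s, the protease of the C1 complex that cuts C4 and C2, had a difference of -0.11 ± 0.070 (adjusted p = 0.92), with 0.016 ± 0.14 in HF (SD, n = 11) and -0.096 ± 0.19 in HF-Q (SD, n = 10), and -0.062 without the 2 livers. Whether its probe tells C1s1, the RefSeq name of this gene, from its relative C1s2 was not tested. C2, which supplies the protease of the convertase, had medians of -0.11 in HF and -0.11 in HF-Q.

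Masp2, the lectin-pathway protease that cuts C4 and C2, varied least of all members between livers. Its ratio stayed between -0.12 and 0.092 in all 21 livers, and its residual SD of 0.054 lay at the 1.18th percentile of all genes. Its difference was 0.00041 ± 0.031 (adjusted p = 0.999, 95% interval -0.063 to 0.064), and 0.0032 without the 2 livers. Of its 2 other kept probes, 1 gave 0.0063 and the other -0.11, with correlations to the chosen probe of 0.79 and 0.23. Masp1, whose products include the protease that activates Masp2, ranged from -0.19 to 0.35 in HF and from -0.45 to 0.14 in HF-Q, with HF replicate 2 highest and HF-Q replicate 10 lowest. Its 2 other kept probes correlated with the chosen one at 0.50 and 0.19.

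C1qa, C1qb and C1qc encode the A, B and C chains that assemble together into C1q, and their probes lie next to each other at chr4:136452409-136452468, chr4:136436578-136436637 and chr4:136445766-136445825 (mm9). C1qa ran from -0.76 through -0.18 to 0.42 in HF and from -0.23 through -0.031 to 0.12 in HF-Q. C1qb ran from -0.77 through -0.17 to 0.29 in HF and from -0.45 through -0.14 to 0.068 in HF-Q. C1qc ran from -0.31 through -0.071 to 0.46 in HF and from -0.20 through 0.075 to 0.20 in HF-Q. All 3 were lowest in HF replicate 2 and highest in HF replicate 8, so the HF livers spread over a wider range than the HF-Q livers on each chain, and the groups overlapped. The differences were 0.080, 0.060 and 0.013, and without the 2 livers they were 0.0036, -0.020 and -0.024.

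The 3 chains changed together across livers, which was tested as 3 of 9 pairs of subunits with adjustment over the 9. C1qa and C1qb correlated at r = 0.964 (rho = 0.935, 21 livers, permutation p = 1e-05 for both, adjusted p = 1.8e-05 and 3e-05), and at 0.920 without HF replicates 2 and 8, the livers farthest from the median of C1qa. C1qa and C1qc correlated at r = 0.943 (rho = 0.960), and C1qb and C1qc at r = 0.909 (rho = 0.868), with the same permutation p and adjusted p. The value of 1e-05 is the smallest that 100000 resamples can give. Within the 3 slides the 3 pairs lay between 0.842 and 0.992. The mean of the 3 chains also followed the mean of 8 Kupffer cell markers (Clec4f, Cd5l, Vsig4, Marco, Adgre1, Csf1r, Timd4, Cd68) at r = 0.816 (rho = 0.757, 21 livers), and at 0.883 over 19 livers. Without HF replicates 6 and 8, the livers with the highest mean of these markers, r was 0.697. Within the slides, of 6 to 8 livers each, it was 0.716, 0.876 and 0.891, and 0.019, 0.392 and 0.821 without the 2 livers of each slide farthest from the median of the markers, so in slides 1 and 2 it rested on those livers. It is given as a description with no p, since both means come from the same arrays and pool. All 8 markers were measured, 5 lower and 3 higher in HF-Q, and their mean ran from -0.54 to 0.64 in HF and from -0.59 to -0.033 in HF-Q. The mean was taken without scaling, and Marco varied most between livers, so it weighs most. The standard error of its diet difference was 0.40, beside 0.063 to 0.14 for the other markers. The relation of C1q to each marker alone was not examined. With the mean of the other 38 members the C1q mean correlated at -0.258 over 21 livers and at 0.200 over 19, so the sign there depended on the 2 livers. In whole liver, fewer Kupffer cells and less C1q RNA in each cell cannot be told apart.

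**Figure D3:**
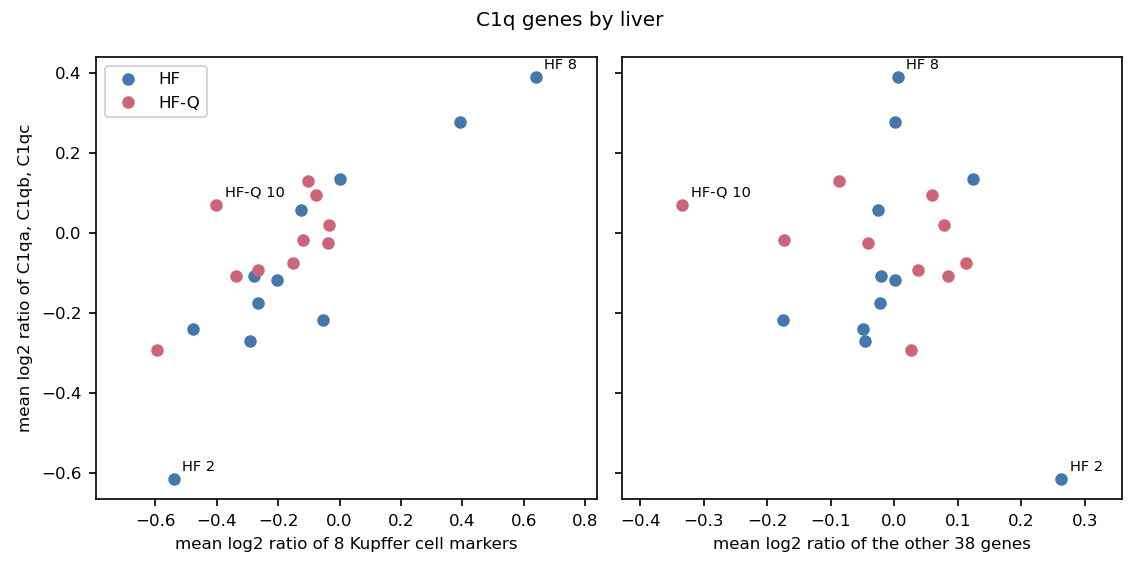
Mean log2 ratio of C1qa, C1qb and C1qc (y axis) in 11 HF and 10 HF-Q livers against the mean of 8 Kupffer cell markers (left) and against the mean of the other 38 complement and coagulation genes, over those with a value in the liver (right), 1 point per liver. The points climb together on the left (r = 0.816) and show no such line on the right (r = -0.258), where HF replicate 2 and HF-Q replicate 10 stand at the ends.

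The 250 bases before the transcription start of C1qb and C1qc are shown because these genes changed together across livers (RefSeq, build GRCm38.p6, minus strand, chr4:136886201-136886450 and chr4:136892915-136893164, printed in the direction of transcription). Capitals mark GAGGAAG on either strand, a core bound by the macrophage factor PU.1, here read as its reverse complement 194 bases before the start of C1qc. C1qb holds no match in this window. The table held no entry for C1qa.
C1qb: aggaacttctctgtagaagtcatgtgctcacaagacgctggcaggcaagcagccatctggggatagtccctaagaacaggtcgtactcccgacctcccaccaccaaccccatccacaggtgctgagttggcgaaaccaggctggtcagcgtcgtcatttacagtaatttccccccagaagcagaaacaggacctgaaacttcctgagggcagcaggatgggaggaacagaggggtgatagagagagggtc
C1qc: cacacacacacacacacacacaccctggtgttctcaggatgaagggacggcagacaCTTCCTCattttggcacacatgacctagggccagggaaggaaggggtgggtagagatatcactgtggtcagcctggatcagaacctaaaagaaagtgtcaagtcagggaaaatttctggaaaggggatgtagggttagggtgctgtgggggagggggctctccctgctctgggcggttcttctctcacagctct

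At the centre of complement lie C3, whose cleavage is the step all routes share, Cfb, the protease of the alternative route, and Cfi, which destroys cleaved C3. C3 ran from -0.23 through 0.15 to 0.62 in HF and from -0.69 through 0.36 to 0.44 in HF-Q. Apart from HF-Q replicate 10 at -0.69, the HF-Q livers lay between 0.15 and 0.44, inside the HF range. Its difference was 0.029 ± 0.12 (adjusted p = 0.999, 95% interval -0.23 to 0.28), and 0.16 ± 0.090 without the 2 livers (adjusted p = 0.64). Within the slides it was -0.29, 0.10 and 0.28, and slide 1 is the one that holds HF-Q replicate 10. A second probe of C3 gave a difference of 0.12 over all livers and correlated with the first at 0.97. Cfb had a difference of -0.016 ± 0.059 (adjusted p = 0.999), with a median of 0.012 in HF (-0.29 to 0.23) and 0.028 in HF-Q (-0.36 to 0.13). Its sign turned with median centring, in the deposited table and without the 2 livers. Cfi had a difference of -0.051 ± 0.052 (adjusted p = 0.98) and was -0.088 ± 0.13 in HF (SD, n = 11) and -0.14 ± 0.11 in HF-Q (SD, n = 10). Its sign turned with median centring.

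The 6 terminal genes supply parts of the membrane attack complex, in which C5 (encoded by Hc), C6, C7, C8 and C9 join one after another. C7 is not a member. Of the 6 genes, 2 held the largest differences between diets among the members. C8b, the beta chain of C8 (probe at chr4:104477094-104477153, mm9), ran from -0.61 through -0.19 to 0.74 in HF and from -0.57 through 0.24 to 0.41 in HF-Q. In HF 9 livers were below 0, with HF replicates 11 and 2 at 0.21 and 0.74, and in HF-Q 7 were above 0, with HF-Q replicate 10 lowest. The difference was 0.26 ± 0.14 (1.20-fold, unadjusted p = 0.070, adjusted p = 0.87, 95% interval -0.023 to 0.55), and 0.26, 0.40 and 0.17 within the slides. Without the 2 livers it was 0.43 ± 0.096 (1.34-fold, adjusted p = 0.127).

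C6, which binds freshly cleaved C5 (probe at chr15:4748363-4748422, mm9), showed much the same livers. It ran from -0.82 through -0.20 to 0.65 in HF and from -0.61 through 0.090 to 0.36 in HF-Q. Apart from HF replicate 2 the HF livers reached 0.076 at most, and apart from HF-Q replicate 10 the HF-Q livers began at 0.030. The difference was 0.25 ± 0.13 (unadjusted p = 0.075, adjusted p = 0.87), and 0.40 ± 0.092 without the 2 livers (adjusted p = 0.13). Within the slides it was 0.31, 0.55 and 0.0056, and slide 3 is the one that holds HF replicate 2. C6 and C8b were each other's closest partners among the members across livers, at r = 0.876 over 21 livers and 0.812 over 19. C8b and C6 were also the 2 members with the largest residual SD, 0.34 and 0.33, at the 97.2th and 96.8th percentile of all genes.

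C8g, the gamma chain of C8 and a member of the lipocalin family, lay the other way. Its ratio ran from 0.043 through 0.19 to 0.31 in HF and from -0.073 through 0.11 to 0.27 in HF-Q. HF replicate 2 was the lowest HF liver and HF-Q replicate 10 the highest HF-Q liver, the reverse of their place on C6 and C8b. The difference was -0.073 ± 0.042 (adjusted p = 0.88), and -0.11 ± 0.039 without the 2 livers (adjusted p = 0.36). It was 0.0055 with median centring.

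The 3 chains of C8 thus did not change alike across livers. C8a and C8b correlated at r = 0.796 (rho = 0.775, permutation p = 1e-05 and 7e-05, adjusted over 9 pairs to 1.8e-05 and 0.00016), at 0.674 without HF replicate 2 and HF-Q replicate 10, and at 0.841, 0.723 and 0.656 within the slides. C8a and C8g correlated at r = -0.532 (rho = -0.431, permutation p = 0.014 and 0.053, adjusted p = 0.015 and 0.053), at -0.407 without these 2 livers, and at -0.784, -0.714 and -0.217 within the slides. C8b and C8g correlated at r = -0.473 (rho = -0.458, permutation p = 0.031 and 0.037, adjusted p = 0.031 and 0.042), at -0.381 without HF replicate 2 and HF-Q replicate 1, the livers farthest from the median of C8b, at -0.339 without HF replicate 2 and HF-Q replicate 10, and at -0.683, -0.300 and -0.303 within the slides. Slide 3 thus held the weakest C8a to C8g relation. Over 21 livers the member closest to C8a was Hc rather than C8b, at r = 0.843, which was 0.552 without HF replicate 2 and HF-Q replicate 10. The second probe of C8g correlated with the chosen one at 0.89 and had a difference of -0.048, and that of C8a correlated at 0.96.

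C8a, the alpha chain of C8, ran from -0.55 through -0.23 to 0.50 in HF and from -0.72 through -0.12 to 0.0075 in HF-Q. Hc ran from -0.54 through -0.27 to 0.47 in HF and from -0.92 through -0.16 to -0.056 in HF-Q. C9, which forms the ring of the pore, ran from -0.51 through -0.19 to 0.44 in HF and from -0.51 through -0.14 to 0.091 in HF-Q. For all 3 HF replicate 2 was the highest liver, and HF-Q replicate 10 was the lowest for C8a and Hc but not for C9. By sign, 3 of the 6 terminal genes were higher in HF-Q (median -0.013), and 5 of 6 were higher without the 2 livers (median 0.12).

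**Figure D4:**
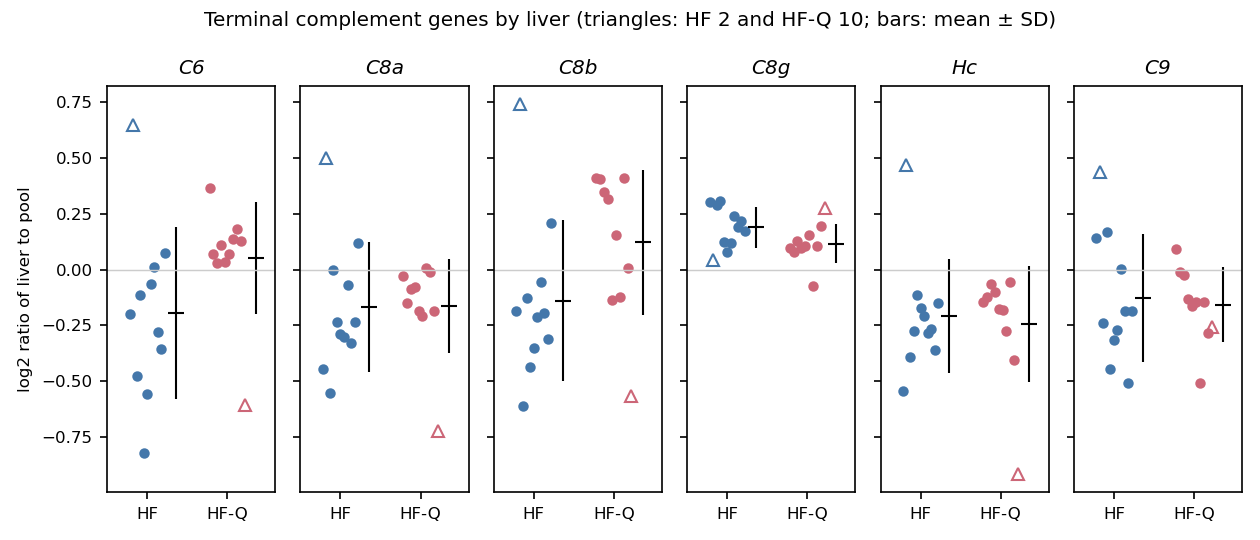
Log2 ratio to the pool (y axis) of the 6 terminal complement genes in 11 HF and 10 HF-Q livers, 1 point per liver, with HF replicate 2 and HF-Q replicate 10 as triangles and bars for mean ± SD. On C6 and C8b the other HF livers lie mostly below 0 and the other HF-Q livers mostly above, while on C8g the triangles change ends.

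Of the 10 clotting factors and contact-system genes, 9 were lower in HF-Q and 1, F10, was higher, with a median of -0.045; without the 2 livers 6 were lower and the median was -0.016, and it was -0.0025 with median centring. F9 encodes factor IX, the X-linked protease missing in haemophilia B (probe at chrX:57282894-57282953, mm9). Its ratio ran from 0.043 through 0.15 to 0.25 in HF and from -0.16 through 0.047 to 0.18 in HF-Q. Every HF liver had a positive ratio, and 4 HF-Q livers lay below all HF livers. The difference was -0.099 ± 0.038 (1.07-fold lower in HF-Q, unadjusted p = 0.016, adjusted p = 0.79, 95% interval -0.18 to -0.020), with -0.081, -0.12 and -0.11 within the slides and -0.095 without the 2 livers. F9 was also among the 3 members that varied least between livers, with a residual SD of 0.079.

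F5 encodes factor V, the cofactor that speeds the making of thrombin. It ran from -0.38 through -0.15 to 0.30 in HF and from -0.84 through -0.17 to 0.0068 in HF-Q. HF replicate 2 was highest and HF-Q replicates 10, 7 and 9 were lowest, as for C4b. The difference was -0.16 ± 0.092 (adjusted p = 0.90) and -0.052 without the 2 livers, and a second probe gave -0.14 with r = 0.95 to the first. F12, the starter of the contact system, had a difference of -0.051 ± 0.052 (adjusted p = 0.98), -0.013 without the 2 livers and 0.018 with median centring.

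F11, the target of activated factor XII, was the member with the third largest residual SD, 0.32. It ran from -0.34 through -0.11 to 0.75 in HF, where HF replicate 2 stood far above the others, and from -0.64 through 0.011 to 0.42 in HF-Q. Its difference was -0.026 ± 0.13 (adjusted p = 0.999), and 0.091 without the 2 livers. F10, the factor at which both starting routes of clotting meet, varied little, with a residual SD of 0.065, and had a difference of 0.034 ± 0.035 (adjusted p = 0.98). Its second probe gave -0.072 and correlated with the first at only -0.14, so the probes of F10 disagreed. Of the others, prothrombin (F2) had medians of 0.18 in HF and 0.13 in HF-Q, factor VII (F7) -0.024 and -0.022, the factor XIII B chain (F13b) -0.065 and -0.14, kininogen (Kng1) 0.32 and 0.28, and prekallikrein (Klkb1) -0.062 and -0.023. For each of these 5 the groups overlapped.

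Fga, Fgb and Fgg encode the alpha, beta and gamma chains of fibrinogen, and their probes lie close together at chr3:82835678-82835737, chr3:82846334-82846393 and chr3:82818825-82818884 (mm9). Fgb ran from 0.0028 through 0.34 to 0.61 in HF and from -0.18 through 0.34 to 0.59 in HF-Q. Fga ran from -0.42 through -0.013 to 0.22 in 10 HF livers and from -0.36 through 0.011 to 0.13 in HF-Q. Fgg ran from -0.31 through 0.049 to 0.19 in HF and from -0.45 through 0.046 to 0.36 in HF-Q. The 3 chains had HF-Q replicate 10 as the lowest HF-Q liver, and the medians of the diets were nearly equal. The differences were 0.00069 ± 0.082 for Fgb (95% interval -0.17 to 0.17), 0.028 ± 0.071 for Fga and 0.033 ± 0.080 for Fgg (adjusted p = 0.999 or above for each). Without the 2 livers they were 0.084, 0.080 and 0.11, and with slide as a block that of Fgb was -0.013. The second probe of Fga gave 0.13 and correlated with the first at only 0.20.

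Across livers Fgb and Fgg correlated at r = 0.837 (rho = 0.732, permutation p = 1e-05 and 0.00027, adjusted over 9 pairs to 1.8e-05 and 0.00049). Without HF-Q replicate 10 and HF replicate 1, the livers farthest from the median, r was 0.767, and within the slides it was 0.881, 0.897 and 0.801. Fga and Fgb correlated at r = 0.724 (rho = 0.502, 20 livers, permutation p = 0.00048 and 0.026, adjusted p = 0.00072 and 0.034), but at 0.446 without the same 2 livers and at 0.879, 0.920 and 0.156 within the slides. Fga and Fgg correlated at r = 0.647 (rho = 0.526, permutation p = 0.0026 and 0.017, adjusted p = 0.0033 and 0.026), at 0.498 without the 2 farthest livers and at 0.757, 0.743 and 0.439 within the slides. The relation of Fga to the other chains was therefore weaker in slide 3 and rested in part on HF replicate 1 and HF-Q replicate 10. Changing together was not particular to the chains. Over 21 livers the member closest to Fgb and to Fga was Vtn, at r = 0.886 and 0.764, and that closest to Fgg was Fgb. The median r over all pairs of the 38 members other than C1q was 0.525.

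The 250 bases before the start of the 3 fibrinogen genes are shown because the chains changed together across livers (RefSeq, GRCm38.p6, chr3:83025903-83026152 on the plus strand for Fga, chr3:83049864-83050113 on the minus strand for Fgb and chr3:83007474-83007723 on the plus strand for Fgg). Capitals mark 2 short motifs searched on both strands: CTGGGAA, a core of the response to interleukin-6 of the type known from acute-phase genes, and TTGCNNAA, a C/EBP-type core. Fgb holds CTGGGAA 91 bases and TTGCNNAA 80 bases before its start, Fga holds TTGCNNAA on the other strand 135 bases before it, and Fgg holds CTGGGAA 13 bases before it.
Fga: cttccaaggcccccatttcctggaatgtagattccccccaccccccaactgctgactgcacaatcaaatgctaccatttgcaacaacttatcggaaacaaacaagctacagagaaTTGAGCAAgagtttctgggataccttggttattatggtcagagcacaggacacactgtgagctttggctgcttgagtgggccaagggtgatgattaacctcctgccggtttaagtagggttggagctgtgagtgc
Fgb: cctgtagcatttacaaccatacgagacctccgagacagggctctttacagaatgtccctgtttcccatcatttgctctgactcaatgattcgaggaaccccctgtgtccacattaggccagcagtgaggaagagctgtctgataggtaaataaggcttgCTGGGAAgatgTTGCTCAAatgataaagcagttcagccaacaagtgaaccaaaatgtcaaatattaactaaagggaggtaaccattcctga
Fgg: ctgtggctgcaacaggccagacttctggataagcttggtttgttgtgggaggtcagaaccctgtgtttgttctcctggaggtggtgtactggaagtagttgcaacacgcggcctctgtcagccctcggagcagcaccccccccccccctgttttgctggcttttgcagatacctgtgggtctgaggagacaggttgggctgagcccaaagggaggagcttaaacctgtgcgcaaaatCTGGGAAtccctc

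Of the 31 members with a promoter in the RefSeq table, 8 (25.8%) held TTGCNNAA in these 250 bases, which were C3, C9, C1s, F9, F11, Fga, Fgb and Klkb1, beside 9.56% of all 32851 promoters. CTGGGAA stood in 4 (12.9%: Masp2, F9, Fgb and Fgg), beside 9.1% of all. GAGGAAG stood in 2 (6.45%: C1qc and Fgb), beside 10.6% of all. The letters of these motifs do not overlap each other in the sequences shown. A member was counted if any of its listed promoters held the motif, whereas the share of all counts each promoter singly. A gene with several promoters thus had more chances of a match, so the shares are not in the same unit. A match is a description of the letters and not a measured binding site.

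Of the 9 inhibitors and genes of fibrinolysis, 7 were lower and 2 higher in HF-Q, with a median of -0.029. Without the 2 livers 2 were lower and 7 higher, with a median of 0.017. Serpind1, heparin cofactor II, had the lowest p of the group, with 0.042 ± 0.11 in HF (SD, n = 11) and -0.033 ± 0.15 in HF-Q (SD, n = 10), a difference of -0.075 ± 0.055 (adjusted p = 0.96), and -0.051 without the 2 livers. Serping1, the C1 inhibitor that restrains both complement and the contact system, had a difference of -0.057 ± 0.070 (adjusted p = 0.99), which was 0.016 without the 2 livers and 0.017 with median centring. Cpb2, a carboxypeptidase that slows fibrinolysis, had a difference of -0.031 ± 0.050 (adjusted p = 0.997), which was 0.042 with median centring.

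Antithrombin (Serpinc1) was even between diets, from 0.25 through 0.34 to 0.47 in HF and from -0.071 through 0.35 to 0.47 in HF-Q. HF-Q replicate 10 was the only liver with a negative ratio. Plasminogen (Plg) had medians of -0.041 in HF and 0.0013 in HF-Q, protein C (Proc) 0.015 and 0.075, its cofactor protein S (Pros1) 0.097 and 0.036, the plasmin inhibitor Serpinf2 0.067 and 0.021, and vitronectin (Vtn), which binds the terminal complement complex, 0.15 and 0.21. HF-Q replicate 10 was the lowest liver for Plg at -0.41 and for Vtn at -0.23, and HF replicate 2 was highest for Plg at 0.27.

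Most of the 38 members other than C1q changed together from liver to liver. Of their 703 pairs, 596 (84.8%) had r above 0 and 378 had r above 0.5, with a median of 0.525. Without the 2 livers 277 pairs had r above 0.5, 79.7% had r above 0 and the median was 0.382. The mean r over all pairs was 0.392 among the 30 of them with a value in every liver, beside 0.0024 over 19230 genes. For the same 30 members it was 0.274 over 19 livers and 0.419, 0.185 and 0.459 within the slides. The livers share the pool and the normalization, so these values are descriptions with no p. Normalization centres the ratios of each array near 0, so a mean r near 0 over all genes largely follows from it and is no yardstick. The mean of these members and that of the 4 hepatocyte markers with a value in every liver had the same end livers. They were 0.26 and 0.50 in HF replicate 2 and -0.33 and -0.48 in HF-Q replicate 10. The part of hepatocyte RNA in this was not tested. Plg had the highest mean correlation with the other members (0.632), followed by Masp1 (0.608) and C1s (0.5996), and its closest partner was Proc at 0.934 (0.918 without the 2 livers). Mbl1 (mean r = -0.382), C8g (-0.201), the 3 C1q genes (-0.103 to -0.179) and Masp2 (-0.062) had negative means. Mbl1 kept a negative mean over 19 livers (-0.341), as did Masp2 (-0.140) and C8g (-0.049), while the C1q genes turned to 0.061 to 0.124. C6, at 0.252 with all livers, had a mean of 0.00032 without the 2.

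**Figure D5:**
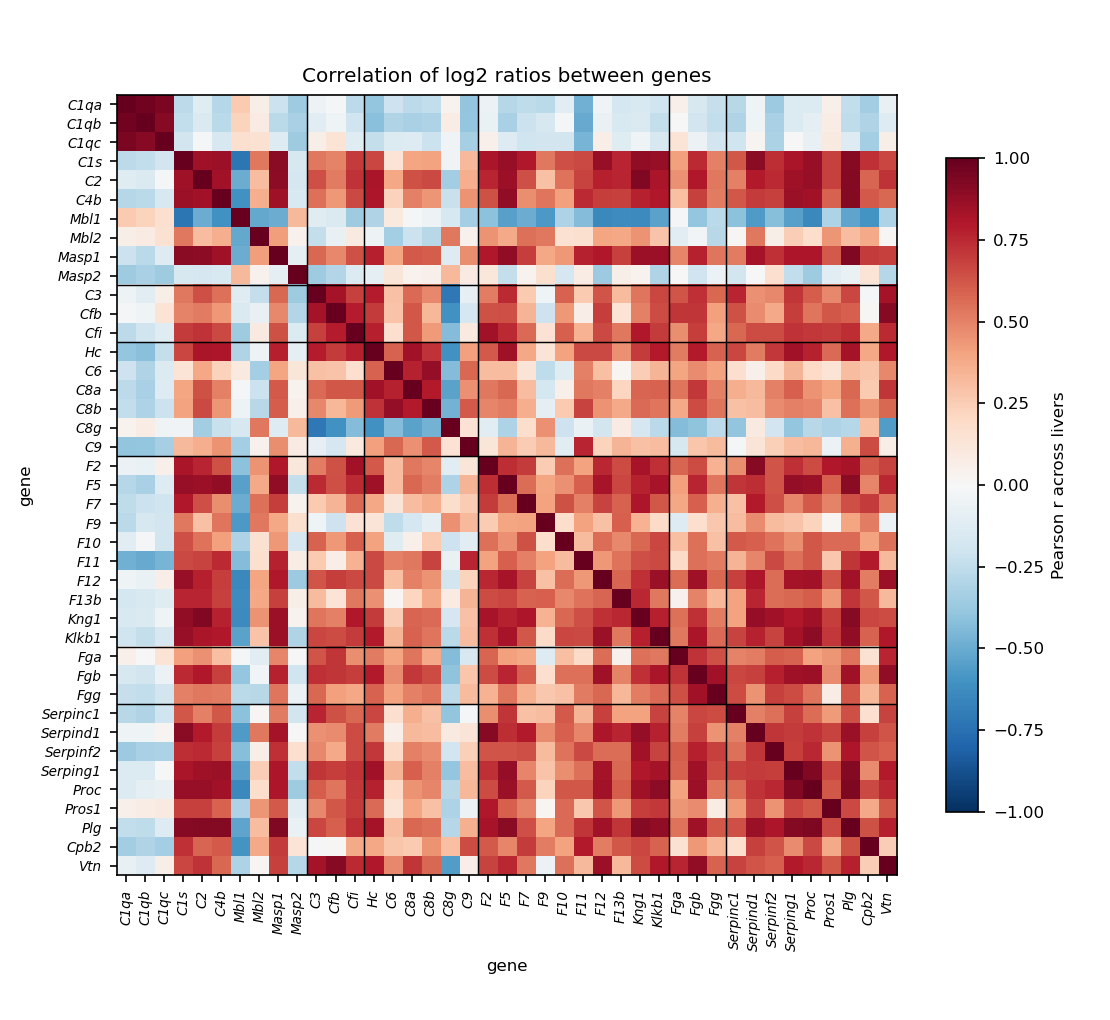
Pearson r across livers (colour, blue for negative and red for positive) between the log2 ratios of each pair of the 41 genes, ordered by role on both axes. A red block spans most genes other than C1q, C1qa, C1qb and C1qc form a block of their own, and Mbl1 and C8g appear as blue lines.

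Of 55 other genes of the same pathways (receptors, regulators, carboxylation enzymes, tissue factor and others), 46 were measured, and none passed the adjusted threshold. Lower in HF-Q were 27 and higher were 19, with a median of -0.018, and 1 of the 46, lower, stood at an unadjusted p under 0.05, beside 5.93% of all genes. With the 2 livers left out 4 of the 46 did, beside 9.48% of all genes, none passed and the median was 0.0055. The 3 of lowest p were Plaur, the urokinase receptor (-0.10 ± 0.046, adjusted p = 0.82), Colec11, a collectin of the lectin pathway (-0.081 ± 0.039, adjusted p = 0.84), and Hrg, histidine-rich glycoprotein (-0.14 ± 0.066, adjusted p = 0.84). Several complement and fibrinogen genes are also acute-phase genes, so 11 acute-phase genes outside the set are given beside them. Of these 10 were lower in HF-Q, 7 of them at an unadjusted p under 0.05, with a median of -0.17, and none passed. Without the 2 livers 6 of the 11 were at an unadjusted p under 0.05 and the median was -0.18. Markers of other cells did not pass in any list: of 6 hepatocyte markers 3 were lower (median 0.024), of 4 sinusoidal endothelial markers 2 (median -0.025), of 4 stellate cell markers 3 (median -0.033), of 2 measured bile duct markers 2 (median -0.0080), of 2 measured neutrophil markers 0 (median 0.22), and of 3 measured pancreatic acinar markers 3 (median -0.42). Over 19 livers these medians were 0.12, 0.0074, 0.0067, 0.0091, 0.21 and -0.48 in the same order, so the sign turned for the endothelial, stellate and bile duct markers. The acinar mean was 1.90 in HF replicate 5 and 2.57 in HF replicate 11 and -0.15 or lower in every other liver. HF replicate 11 was also the highest liver for 9 members, and the part of pancreatic RNA in that was not tested.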

How the data were processed

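Liver RNA of 21 mice (11 HF, 10 HF-Q) was analysed from 2-colour Agilent arrays, 1 liver each. The scanner files that the authors deposited hold the raw intensity of each spot and of its local background. They also hold a processed intensity, from which background was subtracted and in which the dyes were normalized, per the file headers. Spot quality columns of 0 or 1, and other such columns, were deposited beside them. They were made with Agilent Feature Extraction 10.7.3.1, per the submitters' processing notes. A series table deposited by the authors gives log2 values, whose columns follow the log2 Cy5 signal (r = 0.982 to 0.998) and all have a median of 7.92. How these medians became equal is not stated, and the table served only as an alternative. The authors excluded some arrays for uneven hybridisation, which are not analysed here.

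Background was corrected with normexp (offset 50) and ratios were normalized by loess within arrays with limma 3.58.1 (R 4.3.3). Control, uneven and outlying spots had weight 0. Such spots were left out and spots of a probe were averaged. Probes well above background in Cy5 on at least 10 of 21 arrays were kept (26289 probes, 19716 genes), and the brightest stood for a gene. Normexp with an offset draws ratios of dim genes toward 0, and the number of arrays limits the precision. Between 44.0% and 51.3% of probes were above background per array. The diets were compared with limma's moderated test (HF-Q minus HF, no covariates), adjusted over all genes. The code was tested on simulated data. Mice are taken as separate samples per the labels.

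The members, lists, tests and naming rule were chosen with earlier results of these data known. Differences with errors are given for the 3 members of lowest p in each role and the 3 with the largest and the 3 with the smallest residual SD. For the other pathway genes the rule named the 4 of lowest p, of which 1 is not reported here. The lists cover other pathway genes, acute-phase genes and markers of hepatocytes, Kupffer, sinusoidal endothelial, stellate, bile duct, neutrophil and pancreatic acinar cells. Correlations of the 9 subunit pairs were tested by permutation (100000 resamples, two-sided). Alternatives were the processed signals, median centring, no filter, the mean of kept probes, the brightest unsaturated probe, the deposited table, slide or replicate number as a block, each slide alone and each liver left out. Leaving out HF replicate 2 and HF-Q replicate 10 together was chosen after seeing the data. Coordinates of probes come from the scanner files (mm9) and were not assigned to an exon or UTR. Promoters are from RefSeq (GRCm38.p6).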

Additional observations from a re-analysis of the deposited data

Results flagged for a closer look

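In the HF-Q group, single livers stood apart for 9 of the 41 genes, by a gap to the nearest other liver that was large for the group's range. The HF group of 11 was not tested this way. Chance gives about 1 in 20 groups. HF-Q replicate 10 was the low liver in 7 of the 9, with a log2 ratio of -0.69 for C3, -0.92 for Hc, -0.61 for C6, -0.72 for C8a, -0.36 for Cfb, -0.071 for Serpinc1 and -0.23 for Vtn. These 7 share 1 RNA sample and are not separate events. C1qb was at -0.45 in HF-Q replicate 6, where the mean of the 8 Kupffer cell markers was -0.59, the lowest of all livers. F9 was at -0.16 in HF-Q replicate 7, the nearest other liver being at 0.012.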

How the results depend on the processing

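No member passed the adjusted threshold under any alternative. Of all genes, 1 passed within slide 2 and 18 without both livers, and leaving out 1 liver gave 0 to 4 (4 without HF replicate 2, 1 without HF-Q replicate 10). Members at an unadjusted p under 0.05 numbered 0 with median centring (beside 1.21% of all genes), 4 or 9.76% with the replicate block (5.73% of all), 4 or 9.76% within slide 2 (3.61% of all), 1 or 2.44% within slide 3 (4.81% of all) and 5 or 12.2% without both livers (9.48% of all). With 1 liver left out they numbered 2 to 5, and 5 without HF replicate 2 (7.1% of all genes) or HF-Q replicate 10 (7.83%). The replicate numbers did not pair the samples. The deviations of same-numbered livers correlated at -0.34 to 0.16, and none of 10 correlated best with its own number. With the replicate block the members' median was -0.025. Mbl2, F9, C8b, C6, F5, C1s and Serpind1 kept their sign in every alternative that gave a value.

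The sign of the other named members turned, and the cause was not tested. With median centring it turned for Cfi (0.024), Cfb (0.059), C8g (0.0055), F12 (0.018), Serping1 (0.017), Cpb2 (0.042) and F11 (0.022). The median over all genes was 0.024 in that setting, beside -0.0043 in the main fit. In the deposited table the sign turned for Cfb (0.0089), F12 (0.00080) and Cpb2 (0.0019). With the scanner's processed signals Masp2 was at -0.017, and with the mean of kept probes F10 at -0.042 and Masp2 at -0.034. With slide as a block Fgb was at -0.013 and Masp2 at -0.0024, and with the replicate block Cfb at 0.0058 and Masp2 at -0.0076. Without both livers Cfb was at 0.036, Serping1 at 0.016 and F11 at 0.091. Within slide 1 C3 was at -0.29, Fgg at -0.043, Fga at -0.10, Fgb at -0.20, F11 at 0.068 and F10 at -0.053. Within slide 2 C4b was at 0.062, Cfi at 0.028, Cfb at 0.13, F12 at 0.058, Serping1 at 0.095, Cpb2 at 0.063, F11 at 0.17 and Masp2 at -0.051. Within slide 3 Cfi was at 0.031, Cfb at 0.078 and Masp2 at -0.035. With 1 liver left out, Cfb lay between -0.047 and 0.023, C3 between -0.015 and 0.13, Fgg between -0.0032 and 0.087, Fga between -0.013 and 0.066, Fgb between -0.031 and 0.056, Cpb2 between -0.046 and 0.0046, F11 between -0.081 and 0.054 and Masp2 between -0.011 and 0.0094.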
